A study of Drosophila melanogaster with 8 samples.

Results

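The CpA cytosines of the Invader 4 long terminal repeat (LTR) were examined, that is, every cytosine of the amplified LTR sequence that is followed by A. There were 10 of them among the 27 cytosines of the 149-base amplicon, and they were chosen from the reference sequence alone, not from measured values. Invader 4 is an LTR retrotransposon of Drosophila melanogaster with copies at many places in the genome, so a read can come from any copy, and no chromosomal position was assigned. The source material was genomic DNA of whole flies, both sexes mixed, taken as adults 3 days after hatching. Wild type flies were of the strain w1118. The mutant flies carried a Dnmt2 mutant allele on both chromosomes in the same w1118 strain, and the allele itself is not named in the labels. Each genotype was sampled at 4 stages. These were standard culture, heat shock (37 °C for 1 h, then 5 h at room temperature), and 1 day or 3 days of recovery after the same heat shock. Each of the 8 combinations had 1 library, and how many flies went into a library is not given in the sources used here. This design asks whether cytosine methylation at the LTR depends on Dnmt2 and on heat stress.

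DNA methylation places a methyl group on carbon 5 of cytosine. In mammals it is found mainly at CpG, and the enzymes DNMT3A and DNMT3B also methylate CpA in neurons and stem cells. Flies lack these enzymes. Dnmt2, their remaining member of the DNA methyltransferase family, methylates transfer RNA, and whether it also acts on DNA has been debated, with reports of low levels of methylation outside CpG in the fly. Bisulfite turns unmethylated cytosine into uracil, which is read as T, while 5-methylcytosine is read as C. A C that remains can therefore be methylated or unconverted, and no control library was analysed here that tells these apart.

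The contexts are shown because they differ in the base after CpA. Each run covers 7 bases of the LTR reference, 5′ to 3′, with the CpA in capitals, and the number in a name is the position counted from 1 at the 5′ end of the amplicon.
C27: cggCAga
C33: aggCAcg
C39: gaaCAgc
C48: ctgCAgc
C75: ggtCAta
C102: tgaCAat
C110: tggCAca
C112: gcaCAcg
C117: cgcCAgt
C130: agcCAtt
By the base after CpA, 4 sites were CAG, 3 were CAC, 2 were CAT and 1 was CAA. CAG is a CHG site, with H for A, C or T, and the others are CHH sites. C110 and C112 lie 2 bases apart. C117 and C130 each follow another cytosine, so each pair of neighbours reads TT after conversion.

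The libraries held 1505 to 2670 reads, and each CpA cytosine had 1395 to 2666 C or T calls in each library. The libraries were split by library number into a pair of sets known from earlier results of these data. The sets cut across the genotype labels. Libraries numbered 58 to 61 form the first set (Dnmt2 mutant standard and 1 day, wild type heat shock and 3 days), and those numbered 62 to 65 the second. Among base differences at or beside the CpA sites, named by reference base, position and read base, C102G and A34G separate the sets. C112A, C130A, A111G and T77G overlapped between them. At C102 the read base was G instead of C or T (C102G) in 5.26% to 5.77% of first-set reads and in 2.28% to 2.47% of second-set reads. The base after C33 was read as G (A34G) in 0.133% to 0.621% of first-set reads and in 0.808% to 1.14% of second-set reads. What makes the sets differ was not tested. Each genotype comparison at a stage therefore also compares a library of one set with a library of the other. Groups are named as labelled.

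Nearly all CpA cytosines were read as T in every library. The level, C calls over C and T calls at the 10 sites, was 1.86% in the wild type standard library (95% Wilson interval 1.70% to 2.03%), 2.11% after heat shock (1.91% to 2.33%), 2.06% after 1 day (1.88% to 2.25%) and 1.96% after 3 days (1.76% to 2.19%). In the Dnmt2 mutant libraries it was 1.94% at standard (1.73% to 2.17%), 1.80% after heat shock (1.62% to 1.99%), 2.05% after 1 day (1.87% to 2.26%) and 1.78% after 3 days (1.62% to 1.96%). The ranges of the genotypes overlap, and every interval overlaps every other. These intervals cover counting error only, since PCR reads carry no molecular identifiers. The mean was 1.95% ± 0.124 (SD, n = 8 libraries). At the 8 reference thymines followed by A, 0.118% ± 0.0358 of calls were C (SD, n = 8 libraries). Such a C can come from an error, or be a C retained in a copy that holds C there. The CpA level was 9.90 to 22.8 times that share within a library. The share does not measure incomplete conversion, so the ratio does not tell methylated from unconverted C.

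**Figure D1:**
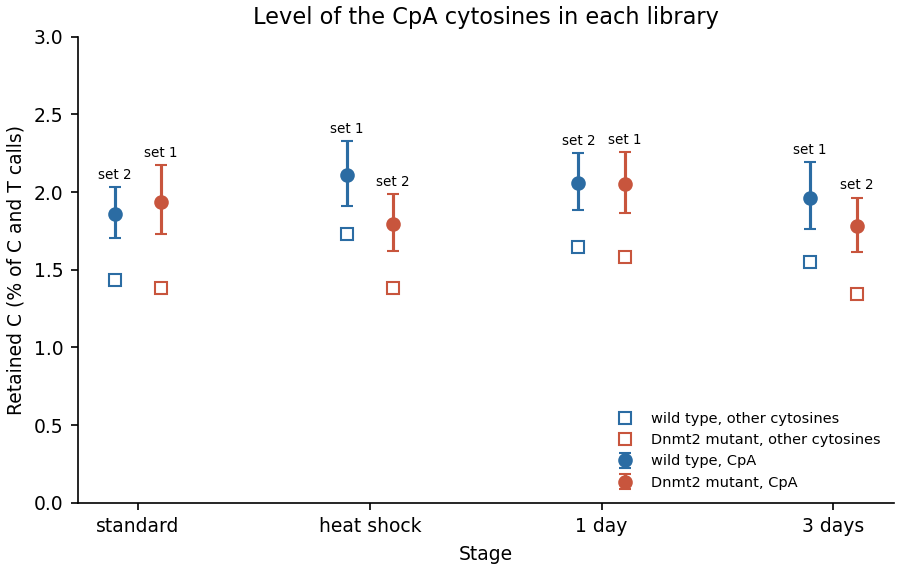
Level of retained C at the 10 CpA cytosines (filled circles, bars give the 95% Wilson interval) and at the other 17 cytosines (open squares) in each of the 8 libraries, by stage and labelled genotype, with the library set written above. CpA lies above the other cytosines in 8 of 8 libraries, and the CpA levels run from 1.78% to 2.11%.

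Among the 10 sites, C112 held the most C and C27 the least. At C112, in CAC context, the wild type libraries had 2.38% at standard, 3.41% after heat shock, 2.62% after 1 day and 2.66% after 3 days. The Dnmt2 mutant libraries had 2.63%, 2.58%, 2.50% and 2.36% in the same order. C112 ranked 1 or 2 among the CpA sites in 8 of 8 libraries, and wild type heat shock was its highest library, with 61 C in 1790 calls. At C27, in CAG context, the wild type libraries had 1.35%, 1.29%, 1.11% and 1.37%, the lowest CpA level in each of these 4 libraries. The Dnmt2 mutant libraries had 1.99%, 1.26%, 1.77% and 1.67% there. The lowest library at C112 (2.36%) lay above the highest at C27 (1.99%), but these sites were picked from the same values as the highest and lowest. Their means were 2.64% ± 0.329 and 1.48% ± 0.301 (SD, n = 8 libraries).

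C130, in CAT context, and C117, in CAG context, followed C112. At standard, heat shock, 1 day and 3 days, C130 had 2.46%, 2.04%, 2.05% and 2.59% in wild type libraries and 2.80%, 1.93%, 2.14% and 2.26% in mutant libraries, and its mean was 2.28% ± 0.306 (SD, n = 8 libraries). It was the highest CpA site in both standard libraries. C117 had 2.26%, 2.29%, 2.31% and 2.28% in wild type libraries and 1.36%, 2.10%, 2.20% and 2.09% in mutant libraries, with a mean of 2.11% ± 0.318. The 4 wild type values of C117 lay close together, and the Dnmt2 mutant standard library, with 20 C in 1476 calls, was the low one.

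The remaining sites lay close together. C33 had a mean of 1.92% ± 0.343 with libraries from 1.57% to 2.52%, and C48 1.91% ± 0.369 with 1.32% to 2.37%. C110 had 1.88% ± 0.332 (1.38% to 2.43%) and C39 1.86% ± 0.319 (1.51% to 2.28%). C75 had 1.78% ± 0.281 (1.51% to 2.37%) and C102, the CAA site, 1.63% ± 0.330 (1.19% to 2.27%; SD, n = 8 libraries each). In the order C112, C130, C117, C33, C48, C110, C39, C75, C102, C27 no neighbours differed by more than the SD of their difference within libraries. The largest step, from C112 to C130, was 0.360 ± 0.502 percentage points, with C112 higher in 6 of 8 libraries. Within a library the 10 sites differed beyond counting error in 3 of 8 libraries, namely wild type standard, heat shock and 1 day (chi-square test over 10 sites, adjusted p from 0.0119 to 0.0352). The other 5 had adjusted p from 0.0587 to 0.737, and the count was 1 of 8 among reads with no base difference outside the cytosines and 0 of 8 when identical reads counted as 1.

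**Figure D2:**
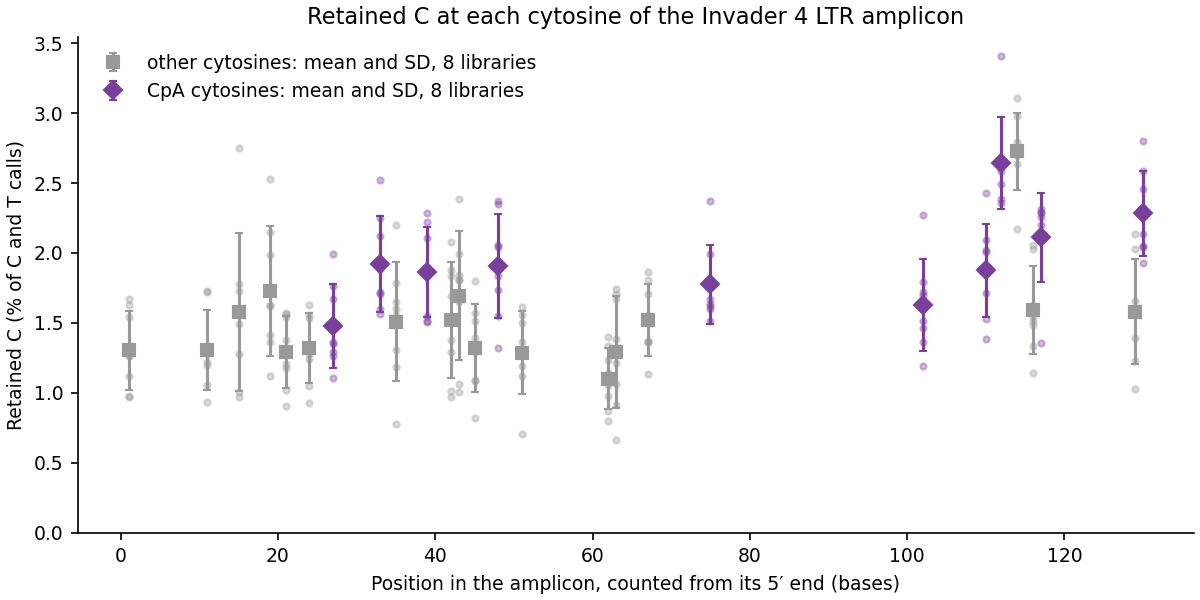
Retained C at each cytosine against its position in the amplicon, with small points for the 8 libraries and large symbols for their mean and SD. The highest CpA site, C112 at 2.64%, lies 2 bases from the highest of the other cytosines, at 2.73%.

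The effect of position was compared within libraries, between sites on either side of the middle of the amplicon. The 6 CpA sites of the 3′ part had a mean level of 2.05% ± 0.117 and the 4 of the 5′ part 1.79% ± 0.187 (SD, n = 8 libraries). The difference was 0.260 ± 0.170 percentage points and positive in 7 of 8 libraries (exact sign-flip permutation test over libraries, two-sided, p = 0.0156, adjusted p = 0.0201 over 9 contrasts). All libraries read the same sites, so the test asks whether these sites keep their difference from library to library, and it does not generalise to other positions. The call rests on C27 at the low end and C112 at the high end. Without C27 the difference was 0.155 (adjusted exact p = 0.176), and without C112 0.142 (adjusted exact p = 0.0984). The call was also lost among reads with no base difference outside the cytosines (0.194, adjusted exact p = 0.211), and without the cytosines where over 5% of reads had neither C nor T (0.129, adjusted exact p = 0.153). With identical reads counted as 1 the difference was 0.460 (adjusted exact p = 0.0352). Reads are merged there by their C and T calls too, so this size cannot be set against 0.260. Over the 10 sites Spearman's rho between position and mean level was 0.636, and in single libraries it ran from 0.188 to 0.782. At reference thymines not followed by A the order was the opposite, with 0.218% ± 0.0352 C in the 5′ part and 0.138% ± 0.0267 in the 3′ part. Only 1 of the thymines followed by A lies in the 5′ part, so they give no such comparison.

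With the base after CpA held fixed, the 3′ sites were also the higher on average. C117 exceeded the 3 CAG sites of the 5′ part by 0.362 ± 0.389 percentage points (higher in 7 of 8 libraries). C110 and C112 together exceeded C33, the 5′ CAC site, by 0.338 ± 0.455 (6 of 8 libraries). Neither was tested, and both are smaller than their SD. Both CAT sites and the CAA site lie in the 3′ part.

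Other cytosines showed a larger difference between the parts, but it turned on C114, a CpG cytosine. Their levels were 1.97% ± 0.214 in the 3′ part and 1.41% ± 0.139 in the 5′ part, a difference of 0.554 ± 0.173 (8 of 8 libraries, adjusted exact p = 0.0117). The 3′ part holds 3 of them (C114, C116 and C129) and the 5′ part 14. The position difference at CpA was smaller than theirs by -0.294 ± 0.170 percentage points (0 of 8 libraries positive, adjusted exact p = 0.0117). Among reads with no base difference outside the cytosines it was -0.194 (adjusted exact p = 0.183). Without C114 this comparison turned to 0.0865 (adjusted exact p = 0.176), and the difference at other cytosines was 0.173 (adjusted exact p = 0.0703). The CpA level exceeded that of the other cytosines by 0.380 ± 0.114 percentage points in the 5′ part (8 of 8 libraries) and by 0.0862 ± 0.147 in the 3′ part (5 of 8 libraries). The smaller 3′ excess turned on C114 too, whose mean level was 2.73% against 1.59% at C116 and 1.58% at C129.

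Because position and class are tied, each CpA was also set against the nearest cytosine that is not CpA. That neighbour lay 12 bases away for C102, 8 for C75 and 1 to 4 for the other sites. Over all sites the CpA level was 0.438 ± 0.0528 percentage points above that of the other cytosines (1.95% ± 0.124 against 1.51% ± 0.142, 8 of 8 libraries, exact p = 0.00781, the smallest that 8 libraries allow, adjusted p = 0.0117). With identical reads counted as 1 the excess was 0.695 (adjusted exact p = 0.0141). That setting merges reads by their C and T calls too, so its size cannot be set against 0.438. Against nearest neighbours the mean difference was 0.0961 ± 0.0906, with 0.0178 in the lowest library and 0.243 in the highest (8 of 8 libraries positive, adjusted exact p = 0.0117). The sites fell on either side of 0. C102, C110 and C112 share C114 as their neighbour and lay below it by -1.10 ± 0.302, -0.850 ± 0.402 and -0.0856 ± 0.266 percentage points. The other 7 sites lay above their neighbours. C130 exceeded C129, the cytosine just before it, by 0.702 ± 0.529 (8 of 8 libraries), and C117 exceeded C116 by 0.520 ± 0.429 (7 of 8). C48 exceeded the mean of C45 and C51 by 0.603 ± 0.379 (7 of 8) and C33 exceeded C35 by 0.414 ± 0.386 (8 of 8). C39, C75 and C27 exceeded C42, C67 and C24 by 0.346 ± 0.521, 0.254 ± 0.387 and 0.158 ± 0.358 (6, 5 and 6 of 8 libraries), each less than its SD. C67 lies in the 5′ part and C75 in the 3′ part. Without C114 the mean difference was 0.437 ± 0.0857 (adjusted exact p = 0.0176), and without C116 it was -0.0175 ± 0.111 (adjusted exact p = 0.672). Removing C116 left C114 as the nearest neighbour of C117. Leaving out any of C33, C39, C48, C75, C117 or C130 also ended the call, with 0.0287 to 0.0785 percentage points and adjusted exact p from 0.0625 to 0.406. Counting identical reads as 1 ended it as well (0.0599 ± 0.333, adjusted exact p = 0.781).

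**Figure D3:**
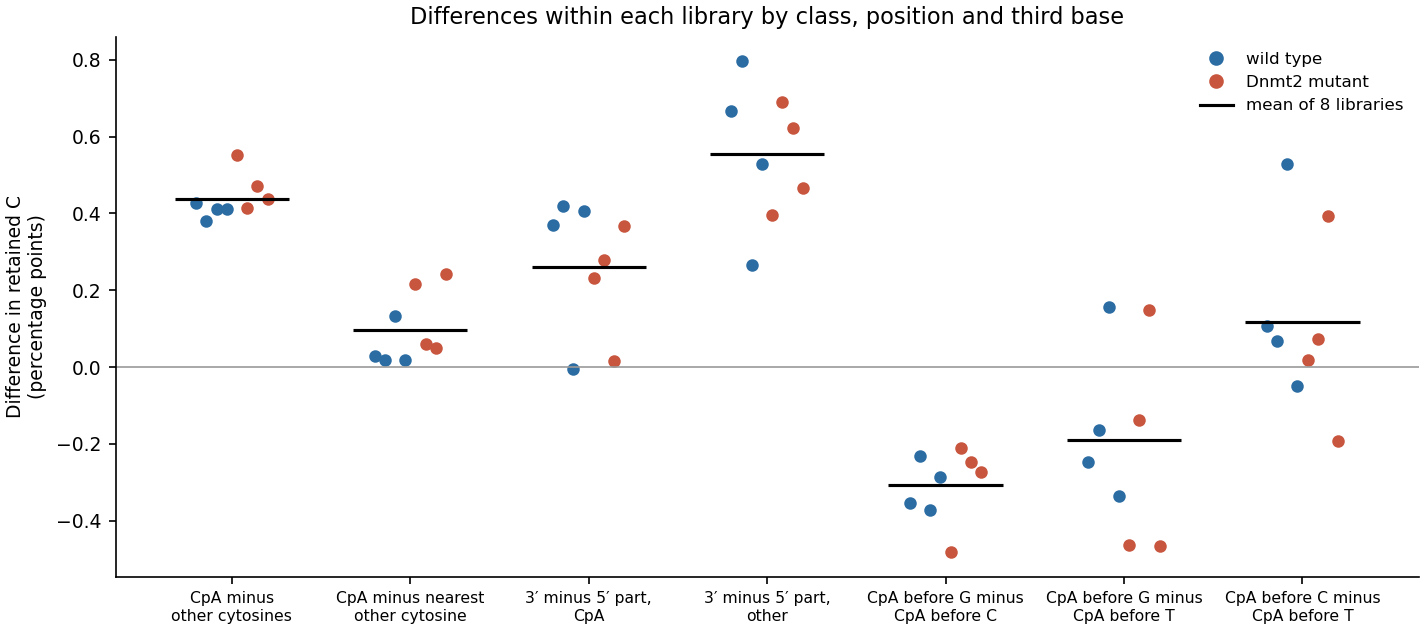
Differences in retained C within each of the 8 libraries (points, coloured by labelled genotype) for the class, position and following-base contrasts, with the mean as a line. The excess of CpA over all other cytosines (mean 0.438 percentage points) lies above 0 in every library, as does the smaller excess over the nearest neighbour (0.0961), while the contrasts with CpA before T cross 0.

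The base after CpA was compared in the same way. CAG sites had a mean level of 1.84% ± 0.160 and CAC sites 2.15% ± 0.168, CAT sites 2.03% ± 0.148 and the CAA site 1.63% ± 0.330 (SD, n = 8 libraries). CAG sites were lower than CAC sites by -0.307 ± 0.0904 percentage points in 8 of 8 libraries (exact sign-flip p = 0.00781, adjusted p = 0.0117 over 9 contrasts). CAG sites against CAT sites gave -0.189 ± 0.242 (6 of 8 libraries negative, adjusted exact p = 0.0879), and CAC against CAT 0.118 ± 0.234 (6 of 8 positive, adjusted exact p = 0.234). CAG sites, in CHG context, lay below the 6 CHH sites by -0.181 ± 0.113 (8 of 8 libraries, adjusted exact p = 0.0117).

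The contrast of CAG with CAC rested on C112. Without it the difference was -0.0593 ± 0.208 percentage points (adjusted exact p = 0.438), and that of CAG with the CHH sites was -0.0565 ± 0.134 (adjusted exact p = 0.334). Without C27 the latter was -0.0595 ± 0.212 (adjusted exact p = 0.519). Among reads with no base difference outside the cytosines the differences were -0.303 (adjusted exact p = 0.0527) for CAG against CAC and -0.124 (adjusted exact p = 0.264) for CAG against the CHH sites. Without the cytosines where over 5% of reads had neither C nor T they were -0.0593 (adjusted exact p = 0.510) and -0.0181 (adjusted exact p = 0.617). Of the 4 CAG sites 3 lie in the 5′ part, and of the 3 CAC sites 2 lie in the 3′ part. Within the 5′ part CAG sites lay below C33 by -0.172 ± 0.351 percentage points (CAG higher in 2 of 8 libraries), and within the 3′ part C117 lay below C110 and C112 by -0.148 ± 0.448 (higher in 4 of 8). Both differences are smaller than their SD. The following base and the position cannot be told apart with these 10 sites.

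LTR copies differ in sequence, and in some reads the base after the site was not A. At C110 the next base was G in 3.08% of calls (A111G), which makes the site a CpG in those copies. There C was retained in 8 of 495 calls (1.62%, Wilson interval 0.821% to 3.16%), against 294 of 15573 calls (1.89%, 1.69% to 2.11%) where A followed (Fisher's exact test, two-sided, p = 0.866, 8 libraries pooled). Over the 10 sites a following G had 14 C in 889 calls (1.57%, 0.940% to 2.63%) and a following A 3095 in 159665 (1.94%, 1.87% to 2.01%; Fisher's exact p = 0.540). The difference was not detectable at this depth. Copies that lost the cytosine reduced the calls at some sites. C112 was read as A (C112A) in 2.37% to 2.74% of reads in every library, and C130 as A (C130A) in 0.536% to 1.37%. Gaps took 2.13% to 5.23% of reads at C130, 1.77% to 4.12% at C117 and 1.18% to 3.23% at C112. They took 1.29% to 3.06% at C110 (mean level 1.88%), 0.869% to 2.34% at C102 (1.63%) and 0.332% to 0.936% at C75 (1.78%). At C27, C33, C39 and C48 they took at most 0.340%. Such reads give no call, and their part in the higher 3′ levels was not tested.

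Most reads held no C at any CpA site. Of 16435 reads, 13637 (83.0%) had none, 2502 had 1, 280 had 2 and 16 had more. One read of the Dnmt2 mutant heat shock library held C at 10 of 10 CpA sites and at 27 of 27 cytosines. Over the 45 pairs of CpA sites, 373 pairs of C were seen in the same read, against 272 from the product of the site levels, a ratio of 1.37. That read alone gave 45 of them. Without it the count was 328 against 270, a ratio of 1.21, with 27 of 45 pairs of sites at or above the product. Without it the ratio of single pairs ran from 0.224 (C27 with C48) to 2.51 (C27 with C39). The first rests on 1 read against 4.46 from the product, and the second on 11 against 4.38. They are the extremes of 45 pairs and were not tested. The closest pair, C110 and C112, was C at both in 13 reads against 7.80 from the product, and C112 with C117, 5 bases apart, in 7 against 8.78.

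Genotypes were compared within stages. Wild type libraries had a mean CpA level of 2.0% ± 0.110 and mutant libraries of 1.89% ± 0.128 (SD, n = 4 each), and the groups overlapped. Dnmt2 mutant minus wild type was 0.0765 percentage points at standard, -0.315 after heat shock, -0.00822 after 1 day and -0.182 after 3 days. The mean was -0.107 ± 0.176 (SD, n = 4 stages, negative in 3 of 4, exact sign-flip p = 0.375, where the smallest that 4 stages allow is 0.125). If the genotype labels of heat shock and 3 days traded places, it was 0.141. The first library set had a mean CpA level of 2.02% ± 0.0797 and the second 1.87% ± 0.128 (n = 4 libraries each). Within the first set the Dnmt2 mutant libraries differed from wild type by -0.0429 and within the second by -0.172 percentage points, each between 2 and 2 libraries of different stages, where genotype and stage cannot be told apart.

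No CpA comparison of genotypes passed the adjusted threshold of 0.05 on all reads. The largest was after heat shock, -0.315 percentage points (95% interval -0.592 to -0.0378, Fisher's exact test on pooled calls, p = 0.0266, adjusted p = 0.106 over 4 stages). Without the read that held C at every cytosine, the Dnmt2 mutant heat shock level was 1.75% in place of 1.80%, and the comparison passed, with -0.364 (adjusted Fisher's exact p = 0.0410). Each such test compares a pair of libraries, not the conditions. The intervals at the other stages were -0.200 to 0.353 at standard, -0.276 to 0.259 after 1 day and -0.460 to 0.0954 after 3 days. The genotype difference at CpA was compared with that at the other cytosines, which was -0.169 ± 0.141. CpA minus other was 0.0613 ± 0.0449 percentage points (positive in 4 of 4 stages, exact sign-flip p = 0.125). The mean difference was thus less negative at CpA (-0.107) than at the other cytosines. Among reads with no base difference outside the cytosines CpA minus other was -0.135.

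Site by site, the library labelled Dnmt2 mutant had the lower level at 4 of 10 CpA sites at standard, 9 after heat shock, 6 after 1 day and 7 after 3 days. The other cytosines pooled were also lower there, by -0.0489, -0.350, -0.0668 and -0.208 percentage points in the same order. Lower levels were therefore not confined to CpA sites. Fisher's exact test at single cytosines, adjusted over all 27, called 0 of 40 CpA tests, and 2 had an unadjusted p under 0.05. The share called over all 108 tests was 0.926%. By stage it was 0% at standard, 0% after heat shock, 3.7% after 1 day and 0% after 3 days. The smallest adjusted p was 0.106, at C102 after 3 days (2.27% in wild type, 1.19% in Dnmt2 mutant). C48 and C117 were lower in the Dnmt2 mutant at 4 of 4 stages, by -0.238 ± 0.0973 and -0.353 ± 0.371 percentage points (SD, n = 4 stages). This was not particular to CpA, since C45, C51 and C129, which are not CpA, were also lower at 4 of 4 stages. C27 ran the other way, with 1.28% ± 0.119 in wild type libraries and 1.67% ± 0.305 in mutant libraries (n = 4 each), higher in the mutant at 3 of 4 stages by 0.396 ± 0.324 on average. C130 had the same mean, 2.28%, in both. Exchanged labels would turn these signs at 2 of 4 stages. Tested over 8 libraries by chi-square, 0 of 10 CpA sites varied beyond counting error after adjustment over 27 cytosines, of which 3.7% passed. None of the 10 had an unadjusted p under 0.05, with values from 0.160 to 0.647.

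**Figure D4:**
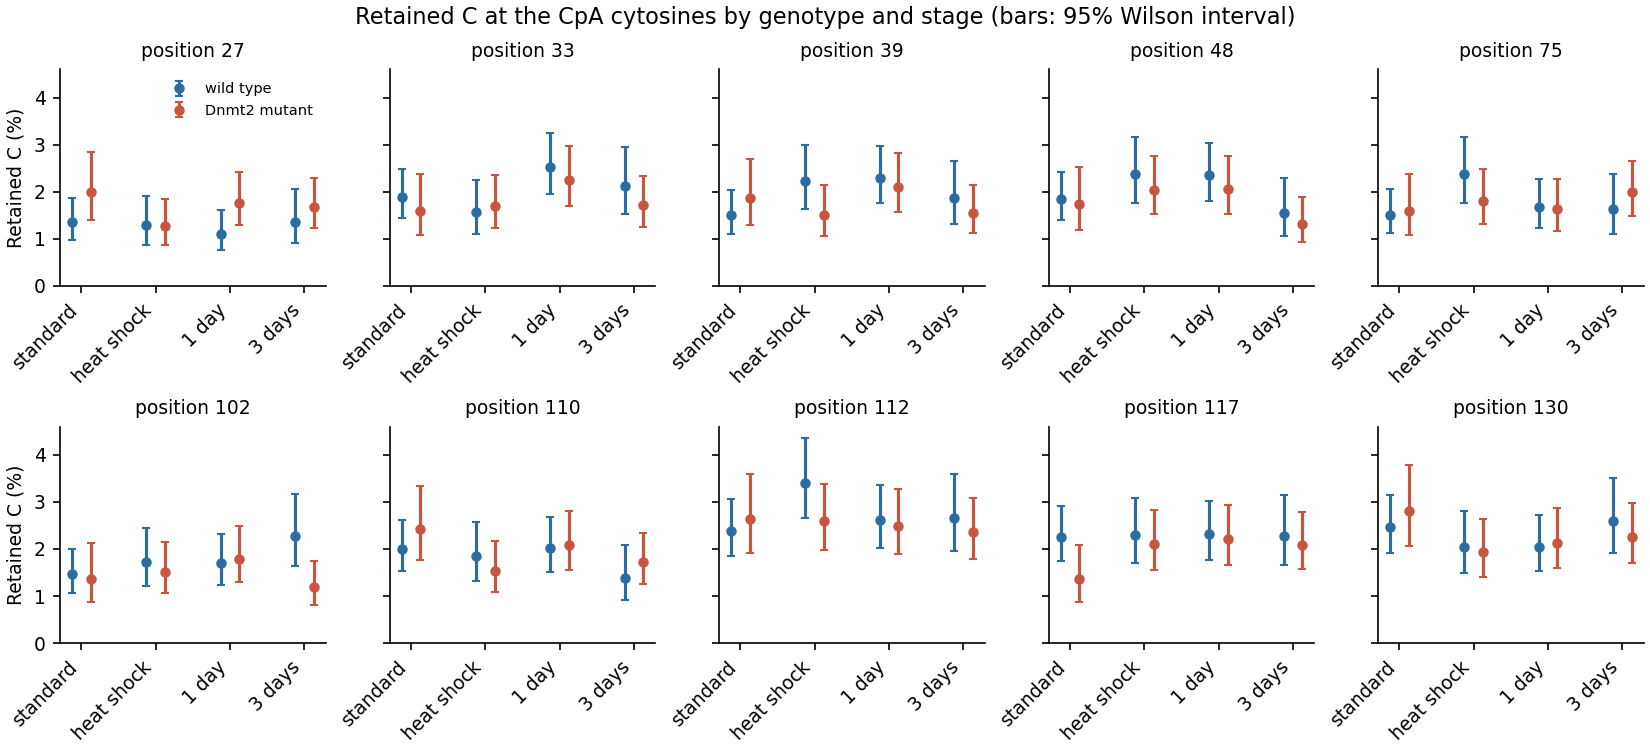
Retained C at each CpA cytosine by stage and labelled genotype, 1 point per library with its 95% Wilson interval. C112 stays at 2.36% or above in every library, C117 is low in the Dnmt2 mutant standard library (1.36%), and the intervals of the genotypes overlap at every site and stage.

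Stages were compared with standard within a genotype. In wild type the CpA level differed from standard by 0.250 percentage points after heat shock (95% interval -0.0157 to 0.515, Fisher's exact test, adjusted p = 0.348 over 6 comparisons), 0.199 after 1 day (-0.0475 to 0.446, adjusted p = 0.348) and 0.104 after 3 days (-0.168 to 0.375, adjusted p = 0.464). In Dnmt2 mutant libraries the differences were -0.142 after heat shock (-0.430 to 0.146), 0.115 after 1 day (-0.181 to 0.410) and -0.155 after 3 days (-0.437 to 0.127), each with adjusted Fisher's exact p = 0.464. All 6 intervals include 0, and each also includes a change of 0.375 percentage points in at least 1 direction. Only the comparisons of 1 day with standard lie within a library set.

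No single CpA site was called between stages, with 0 of 60 tests past the adjusted threshold and 3 with an unadjusted Fisher's exact p under 0.05. The share called over all 162 tests was 0.617%, and by comparison it was 3.7% for wild type heat shock and 0% for the others. After heat shock in wild type, C75 had 2.37% against 1.51% at standard (adjusted Fisher's exact p = 0.334) and C112 3.41% against 2.38%. C75 in the Dnmt2 mutant had 1.81% against 1.60% and C112 2.58% against 2.63%. The change after heat shock did not differ between the labelled genotypes at any of the 10 sites past the threshold (difference of log odds ratios, adjusted p from 0.505 to 0.941 over 27 cytosines).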

How the data were processed

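Per the labels' protocols, 5 µg of genomic DNA was bisulfite treated (EpiTect kit), and the LTR was amplified from 200 ng in 35 cycles, then from 50 ng in 15 cycles with sequencing adapters. Per the labels, the authors then aligned reads to this LTR, with an aligner and filters not given in the sources used here. Deposited matrices hold a code per read and cytosine (0 for C, 1 for T, NA for neither), and a deposited score per read that was not used. The codes matched the aligned bases in all 16435 reads (0 differences), and the deposited percentages were recomputed to within rounding.

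Levels are C calls over C and T calls, pooled over the CpA sites; contrasts of position (split at 74.5, the middle of the amplicon) and following base use means of site levels within a library. Contrasts over 8 libraries were tested by exact sign flips (256 patterns) with Benjamini-Hochberg adjustment over 9, genotypes over stages by 16 sign patterns, and pairs of libraries by Fisher's exact test with at least 50 calls per cytosine and a threshold of 0.05. Intervals of differences between libraries are normal approximations. With 1 library per group, sign-flip p-values ask only whether a difference recurs over these libraries or stages. Fisher's and chi-square tests at single cytosines were tested on simulated data. The simulated calls were independent, which calls from PCR copies need not be, so no support for the results is drawn from them. Every CpA cytosine is named, and of the others those nearest to a CpA, the 3′ part's cytosines included. The members, tests and alternatives were chosen with earlier results of these data known. Python 3.11.15 and scipy 1.17.1 were used.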

Additional observations from a re-analysis of the deposited data

Results flagged for a closer look

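At C117 the Dnmt2 mutant standard library had 1.36% retained C, and the other 3 Dnmt2 mutant libraries had 2.09% to 2.20%. By Dixon's criterion this library stood apart among the 4 libraries of its genotype, each of a different stage. This was the 1 value that stood apart among 31 groups examined (10 sites and the CpA level in each genotype, and 9 contrasts). Chance alone marks about 1 group in 20. Dixon's criterion leaves out counting error. The Wilson interval of the Dnmt2 mutant standard library at C117, 0.879% to 2.08%, overlapped those of the other 3, the lowest of which began at 1.55%. Over the 8 libraries C117 did not vary beyond counting error (chi-square test, p = 0.624, adjusted p = 0.671 over all cytosines). No CpA site differed between the labelled genotypes in its change after heat shock.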

How the results depend on the processing

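The CpA level minus that of the other cytosines kept its sign and stayed past the threshold under every alternative run, except within a library set (0.453 and 0.423 percentage points), where 4 libraries allow no p below 0.125. No analysis paired by replicate was possible because each group held 1 library, which leaves no replicate block to fit. Contrasts were instead taken within libraries, and genotypes were compared within stages. With 1 library left out, the excess of CpA ran from 0.422 to 0.446 percentage points, the excess over the nearest cytosine from 0.0750 to 0.107, the position difference of CpA from 0.237 to 0.298 and CAG minus CAC from -0.320 to -0.282, all past the threshold. The settings that left out single cytosines were chosen after seeing the data.

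Among the 8114 reads with no base difference outside the cytosines, the position difference of CpA was 0.194 and its difference from that of other cytosines -0.194, CAG minus CHH sites -0.124 and CAG minus CAC -0.303, none past the threshold. The genotype difference of CpA minus that of other cytosines was then -0.135, the standard and 1 day genotype comparisons -0.0159 and 0.0502, and the sites differed in 1 of 8 libraries. Counting identical reads as 1 left 6611 of 16435 reads. Reads alike at every base are merged, C and T calls included, so levels depend on the merging and sizes differ in scale from those on all reads. The same setting ended the call of the excess over the nearest cytosine (0.0599, adjusted exact p = 0.781). It gave 0.00403 for the genotype difference at CpA and 0.262 for that difference minus the one at other cytosines. It gave 0.167 for genotypes after 1 day, 0.140 and 0.212 for the Dnmt2 mutant after heat shock and 3 days, and site differences in 0 libraries. Without the cytosines where over 5% of reads had neither C nor T (C102, C112 and C130 among the CpA), the position difference was 0.129, CAG minus CHH -0.0181, CAG minus CAC -0.0593, wild type 3 days minus standard -0.0203, and sites differed in 0 libraries. No contrast with CAT was possible there. Without the read with C at every cytosine, the heat shock genotype comparison was -0.364 and passed.

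With genotype labels traded at heat shock and 3 days the genotype difference was 0.141. With labels traded at standard and 1 day the genotype difference at CpA minus that at other cytosines was -0.0307. Counted as reads with at least 1 C at CpA, genotypes differed by 0.142 percentage points after 1 day. The excess over the nearest cytosine was 0.0607 without C33, 0.0683 without C39, 0.0398 without C48, 0.0785 without C75, 0.0489 without C117, 0.0287 without C130 and -0.0175 without C116. Without C27 the position difference was 0.155 and CAG minus CHH -0.0595, and without C112 they were 0.142 and -0.0565, with CAG minus CAC at -0.0593. CAC minus CAT passed without C33 (0.231) or C110 (0.253) and was -0.130 without C112, and CAG minus CAT passed without C48 (-0.211) or C117 (-0.279). Without C114 the position difference of other cytosines was 0.173, and CpA minus other 0.0865. The cause of these changes was not tested.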

Other observations

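The CpA sites were also grouped by the base before them, after their values were seen and with no test. The 2 sites after C (C117 and C130) had a mean of 2.20% ± 0.138 retained C, the 3 after A (C39, C102 and C112) 2.04% ± 0.260, the 4 after G (C27, C33, C48 and C110) 1.80% ± 0.177 and C75, after T, 1.78% ± 0.281 (SD, n = 8 libraries). C117 and C130 both lie in the 3′ part, so the preceding base and position cannot be told apart.

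Where the base after a CpA site was read as neither A nor G, or as a gap, C was called in 9 of 148 calls (6.08%, Wilson interval 3.23% to 11.2%), against 1.94% (1.87% to 2.01%) where A followed. Of these 9, C112, C130 and C75 held 3, 3 and 2, and C102 held 1.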
